A study of Mus musculus with 12 samples.

Results

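The genes described here encode the machinery of synaptic vesicle release and exocytosis. They are 38 named genes, all found among the 21631 protein-coding genes of the mm10 annotation on chromosomes 1 to 19 and X. Binding of HIF1A and ARNT near them was read from 8 lists of chromatin immunoprecipitation sequencing (ChIP-seq) peaks made in N1E115 cells, a mouse neuroblastoma line whose cells the labels call NOS1+ (NOS1 is the neuronal nitric oxide synthase). Cells of every group were grown for 3 days with 5% CO2 at ambient barometric pressure, at either 20% or 4% O2. There were 2 lists for HIF1A at 4% O2, 2 in ARNT at 4% O2, 2 in HIF1A at 20% O2 and 2 in ARNT at 20% O2. The 4 input samples, 2 at each oxygen level, have no list of their own here. The comparisons ask where both proteins bound around these genes and whether that differed with oxygen or antibody. All groups come from 1 tumour-derived line, and the labels do not say whether replicates were separate cultures, so tests measure only the spread between these samples. Peak lists hold no expression values, so neither the labelled cell type nor the activity of these genes could be checked.

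A gene's window was its annotated span with 10 kb on either side, or 50 kb for Syt1, whose wider window was set because a distal site there was already known. Overlapping entries of the 8 lists were merged into sites. A peak's percentile is the position of its score, which the authors' peak caller gave, among all peaks of the same list (100 is the top). A site or region is called reproducible in a group where peaks of both lists of that group overlapped. A site was placed at a gene end where its centre lay within 1 kb of either end of the gene. Exons and introns were not used here, so "inside" means within the annotated span, more than 1 kb from its ends.

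Vesicle release runs as a cycle. Rab3 proteins, RIM proteins and Munc13 proteins (Unc13 genes) dock and prime a filled vesicle at the active zone, the SNARE proteins of vesicle and plasma membrane zip together, synaptotagmins sense calcium and trigger fusion, and NSF with the SNAP adaptors takes the spent SNARE complex apart. HIF1A is the subunit of the transcription factor HIF-1 that is degraded when oxygen is ample, and ARNT is its stable partner. The pair recognises short DNA elements with the core letters ACGTG or GCGTG. ARNT can also pair with itself on CACGTG, which other factors of its family bind too.

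Reproducible sites overlapped, at least in part, the 250 bases before an annotated start of Syt1, Syn2, Unc13a, Napa and Napb, which are shown for that reason. They come from RefSeq (GRCm38.p6, the same build as mm10), which gave starts for 26 of the 38 genes and none for the other 12. They are written 5′ to 3′ on the gene's strand, and capitals mark the core letters above, CACGTG included, which stand as their reverse complements where they lie on the other strand. The windows are chr10:109009112-109009361, minus strand, for Syt1 (the inner of its starts in that table), chr6:115134652-115134901, plus strand, for Syn2 (the outer of its starts), chr8:71671758-71672007, minus strand, for Unc13a, chr7:16098330-16098579, plus strand, for Napa and chr2:148732421-148732670, minus strand, for Napb.
Syt1: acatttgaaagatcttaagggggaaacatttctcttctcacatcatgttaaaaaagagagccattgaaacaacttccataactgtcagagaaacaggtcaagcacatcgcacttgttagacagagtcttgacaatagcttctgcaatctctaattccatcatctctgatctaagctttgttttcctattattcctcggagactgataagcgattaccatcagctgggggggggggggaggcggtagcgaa
Syn2: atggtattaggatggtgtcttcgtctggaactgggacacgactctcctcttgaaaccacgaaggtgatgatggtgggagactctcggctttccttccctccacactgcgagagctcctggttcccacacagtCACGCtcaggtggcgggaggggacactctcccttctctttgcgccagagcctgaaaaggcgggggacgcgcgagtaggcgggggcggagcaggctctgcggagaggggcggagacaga
Unc13a: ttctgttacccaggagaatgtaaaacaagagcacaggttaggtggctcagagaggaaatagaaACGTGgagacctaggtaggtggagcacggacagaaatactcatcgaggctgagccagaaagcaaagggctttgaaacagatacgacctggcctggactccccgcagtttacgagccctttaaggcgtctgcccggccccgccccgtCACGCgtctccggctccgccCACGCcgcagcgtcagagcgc
Napa: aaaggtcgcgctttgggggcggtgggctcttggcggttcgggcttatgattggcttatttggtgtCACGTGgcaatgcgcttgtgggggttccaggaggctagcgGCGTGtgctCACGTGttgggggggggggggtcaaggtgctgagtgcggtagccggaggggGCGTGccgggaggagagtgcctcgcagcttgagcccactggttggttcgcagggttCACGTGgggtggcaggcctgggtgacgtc
Napb: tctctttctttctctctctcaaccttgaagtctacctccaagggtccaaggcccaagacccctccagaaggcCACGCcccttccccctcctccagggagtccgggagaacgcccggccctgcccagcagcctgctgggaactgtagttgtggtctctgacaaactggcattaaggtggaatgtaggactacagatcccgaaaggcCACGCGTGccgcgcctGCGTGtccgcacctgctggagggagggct

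These stretches differ in the letters they hold. Napa had 3 copies of CACGTG and 2 of GCGTG, and its stretch was the only one of the 5 overlapped by a site with peaks in all 8 lists. Whether each of those peaks reached the stretch itself was not read. Napb had 4 copies of GCGTG, with 2 of them overlapping each other on opposite strands. Unc13a had 1 ACGTG and 2 GCGTG, and Syn2 had 1 GCGTG. The Syt1 stretch held none of these letters. A site present in all 4 lists at 4% O2 overlapped it only in part. That site was centred 423.5 bp before the start, outside the stretch, and the sequence there was not read. Of the 26 genes with a start in the table, 8 had ACGTG in at least 1 such stretch, against 20.2% of all 17274 genes in the table. GCGTG was found for 15 of 26, against 37.1%, and CACGTG for 5 of 26, against 7.70%. A gene with CACGTG also counts as holding ACGTG. The 26 genes had 35 such stretches and the 17274 genes had 21045. Neither the number of starts nor base composition was matched, and their part in these shares was not tested.

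A peak lay in the window of 35 of the 38 genes in at least 1 list, against 61.1% of all genes. Syt10, Syt13 and Rims1, 3 of the 38, had none, against 38.9% of all genes. The lists differed widely in length, with 42701 and 13655 peaks for HIF1A at 4% O2 (replicates 1 and 2), 24942 and 9920 in ARNT at 4% O2, 5393 and 13386 in HIF1A at 20% O2, and 7252 and 1808 in ARNT at 20% O2. Read depth is unknown for all of them. At least 1 peak lay in the window of 34 and 19 of the 38 genes in the HIF1A lists at 4% O2, against 56.9% and 34.8% of all protein-coding genes. For ARNT at 4% O2 these were 28 and 21 genes, against 49.3% and 35.5%. At 20% O2 they were 14 and 20 genes for HIF1A, against 11.3% and 31.8%, and 15 and 6 genes for ARNT, against 22.3% and 7.60%. The share among the vesicle genes was above that of all genes in each of the 8 lists. Their windows were also larger, with a median of 82.3 kb against 37.3 kb, and the part of window size in these shares was not tested.

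**Figure D1:**
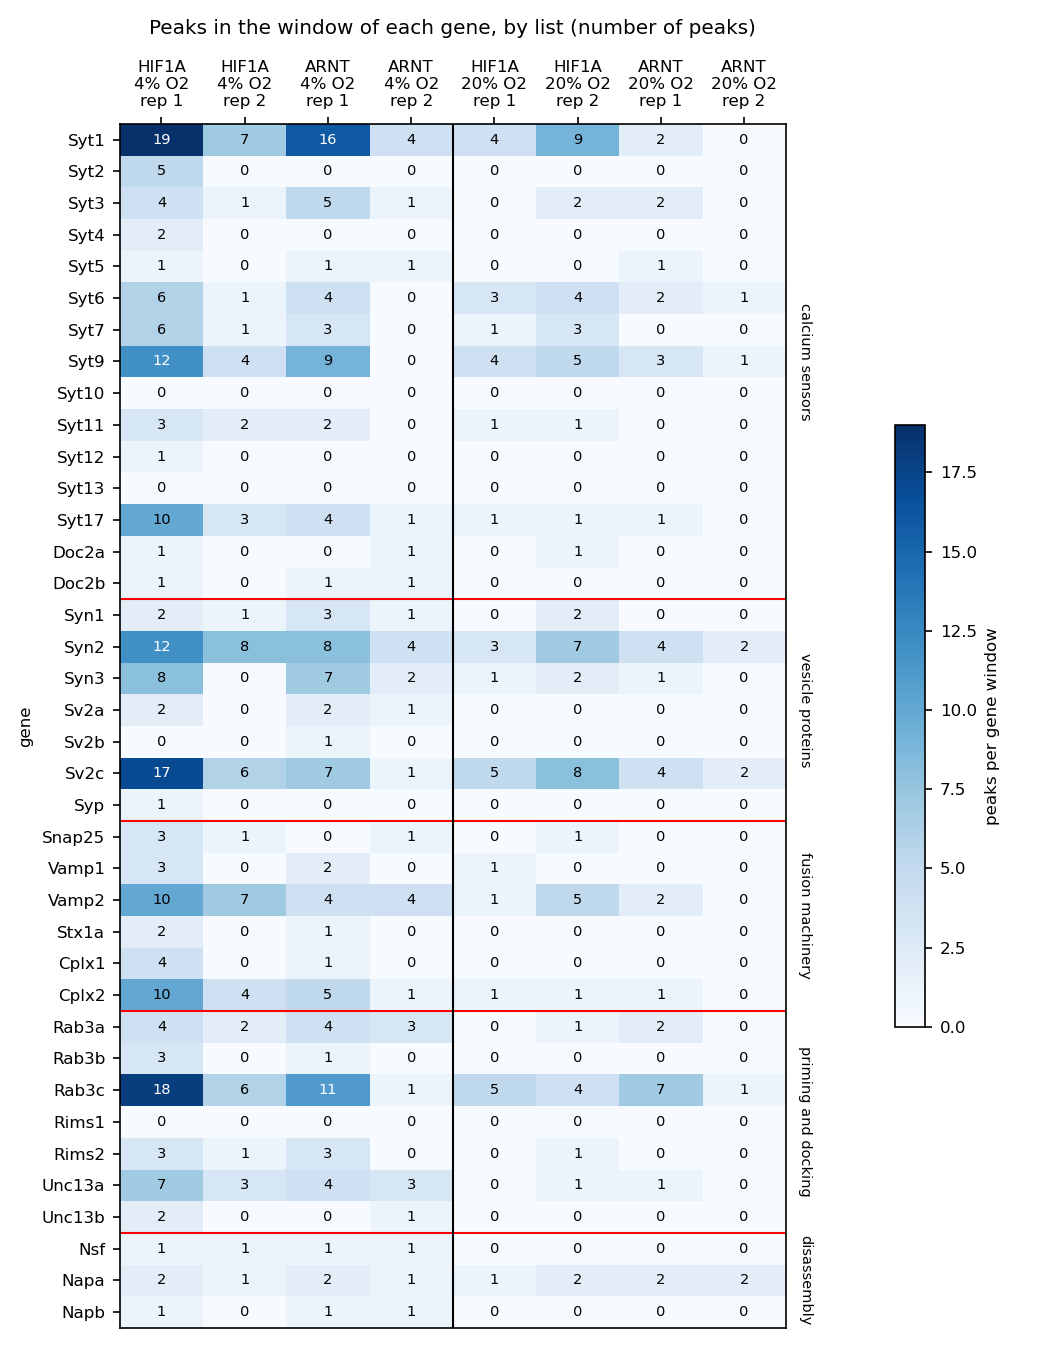
Number of peaks in the window of each of the 38 genes (rows, ordered by role) in each of the 8 lists (columns, "rep" for replicate); darker blue stands for more peaks. The highest counts were 19 for Syt1, 18 for Rab3c and 17 for Sv2c, all in HIF1A at 4% O2 replicate 1, and most cells of the last column are 0.

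**Figure D2:**
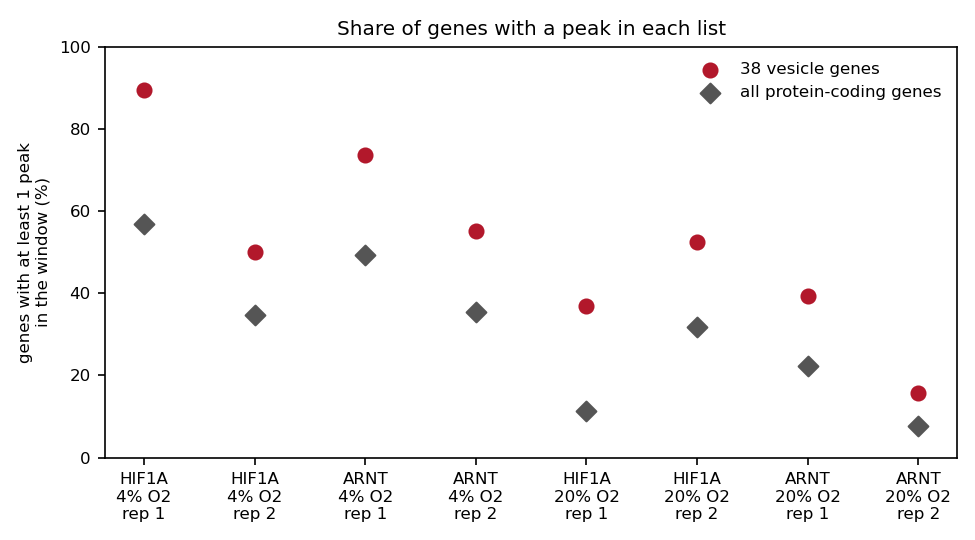
Percent of genes with at least 1 peak in the window, in each of the 8 lists, for the 38 vesicle genes (red circles) and all protein-coding genes (grey diamonds). The red point lies above the grey one in every list, from 89.5% against 56.9% in the longest list to 15.8% against 7.60% in the shortest.

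Reproducible regions are a stricter measure and were found for 21 of the 38 genes in at least 1 of the 4 groups, against 40.4% of all genes. For HIF1A at 4% O2 there were 18 genes (47.4%), against 34.2% of all genes. For ARNT at 4% O2 there were 13 (34.2%), against 27.7%. For HIF1A at 20% O2 there were 10 (26.3%), against 10.1%, and for ARNT at 20% O2 there were 6 (15.8%), against 7.11%. Both antibodies had a reproducible region at 4% O2 in the windows of 11 genes, against 24.0% of all genes. These 11 were 61.1% of the HIF1A genes and 84.6% of the ARNT genes at that level, where the shares over all genes were 70.3% and 86.6%. HIF1A alone was called at 7 genes at 4% O2, against 10.2% of all genes, ARNT alone at Syn3 and Napb, 2 genes, against 3.70%, and neither at 18, against 62.1%. All 6 ARNT genes at 20% O2 were also HIF1A genes there. Over all genes, 681 of the 1538 ARNT genes at that level were also HIF1A genes. Both antibodies were thus called at 20% O2 for 6 of the 38 genes, against 3.15% of all genes. The genes called at 20% but not at 4% O2 were Syt7 and Syn3 in HIF1A, 2 genes against 1.77%, and Syt6, Syt9 and Napa for ARNT, 3 genes against 2.26%.

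The share of genes called was highest among the largest windows, both for the 38 genes and for all genes. Of the 11 genes with a window over 150 kb, 7 had a reproducible HIF1A region at 4% O2, against 47.7% of all genes with windows of that size, and 6 had one at 20% O2, against 33.0%. For ARNT these were 6 of 11 at 4% O2, against 33.5%, and 4 of 11 at 20% O2, against 15.4%. Among the 15 genes with windows of 50 to 150 kb, 7 were HIF1A genes at 4% O2, against 42.2%, and 4 were ARNT genes, against 32.7%. Among the 12 smaller ones these were 4, against 29.3%, and 3, against 25.0%. At 20% O2 the genes of 50 to 150 kb gave 3 in HIF1A, against 13.1%, and 1 in ARNT, against 7.35%. The smaller ones gave 1 for each antibody, which was Napa, against 5.99% in HIF1A and 5.99% in ARNT. Across the 38 genes the number of sites went with window size at a Pearson r of 0.43 and a Spearman rho of 0.30, given as a description, since all genes share the same lists.

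**Figure D3:**
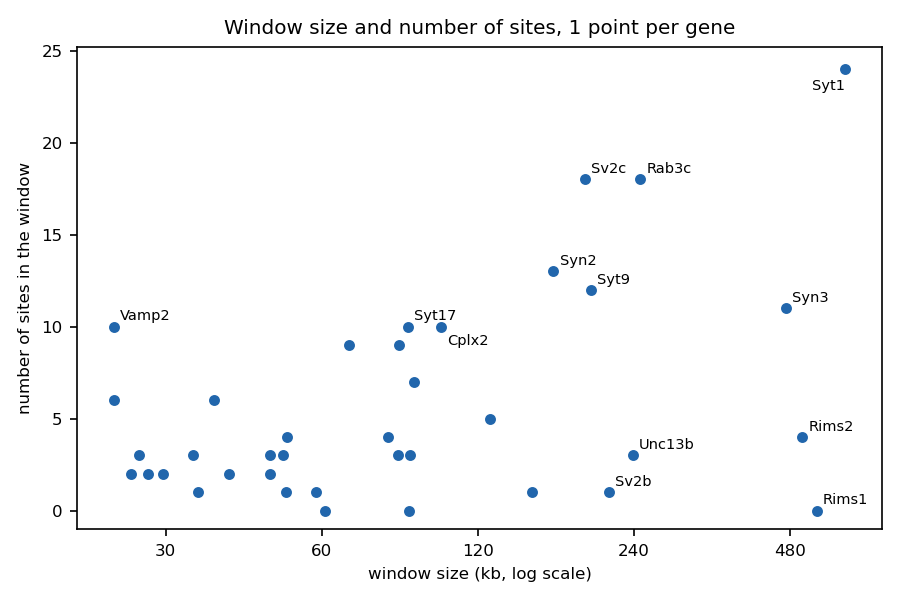
Number of sites in the window against window size in kb (log scale), 1 point for each of the 38 genes, with names for genes with 10 or more sites or a window over 200 kb. Syt1 has 24 sites in 613 kb, whereas Rims1 has 0 in 540 kb and Vamp2 has 10 in 23.9 kb. The Vamp2 sites numbered 5 to 10 along the chromosome lie inside or within 1 kb of the neighbouring gene Per1.

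The windows held 216 sites. Of these, 36 lay at a gene end, 125 inside the gene and 55 outside it. Of all sites, 94 had a peak in 1 list only, and 69 of those were in HIF1A at 4% O2 replicate 1, the longest list. Peaks were found only at 4% O2 in 142 sites (65.7%), at both oxygen levels in 69 (31.9%) and only at 20% O2 in 5 (2.31%). Over all 47948 sites of the genome, merged in the same way, these shares were 66.7%, 30.2% and 3.05%. Reproducible sites numbered 70, of which 9 lay at a gene end, 42 inside the gene and 19 outside. By group there were 59 in HIF1A at 4% O2, 21 in ARNT at 4% O2, 23 in HIF1A at 20% O2 and 9 in ARNT at 20% O2. Of the 216 sites, 27 lay inside or within 1 kb of another protein-coding gene, and so did 9 of the 70. Shares over the genome are not given for location, for sites in 1 list only or for reproducible sites. Those counts are thus not shown to be particular to these genes.

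**Figure D4:**
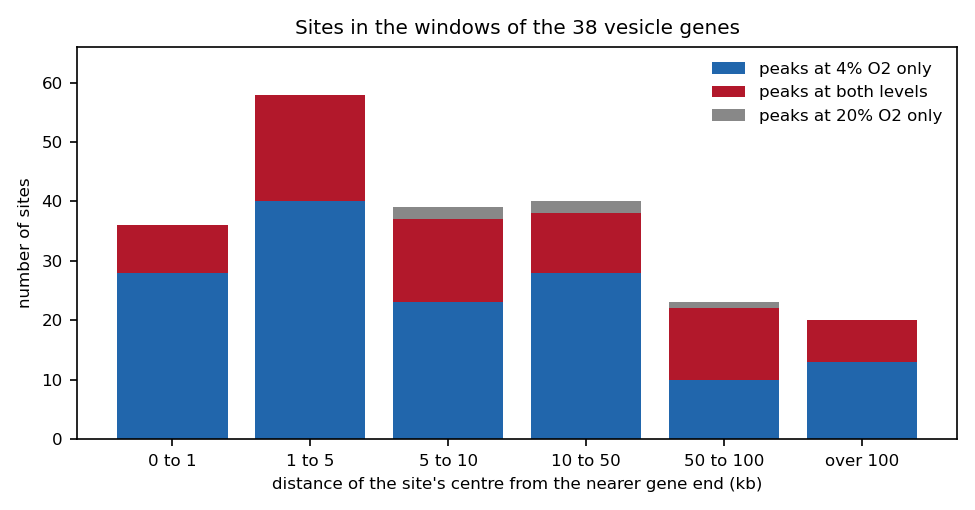
Number of sites by the distance of the site's centre from the nearer gene end, in kb (unequal bins), stacked by whether their peaks were at 4% O2 only (blue), at both oxygen levels (red) or at 20% O2 only (grey). Sites within 1 kb of an end numbered 28 with peaks at 4% O2 only and 8 at both levels.

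The group called calcium sensors here holds 13 synaptotagmins and 2 Doc2 genes, and not all of them bind calcium. Of these 15 genes, 6 had a reproducible HIF1A region and 3 an ARNT region at 4% O2, and 5 and 2 did at 20% O2. The shares of all genes to set beside these, and beside the counts of the other roles, are 34.2% and 27.7% at 4% O2 and 10.1% and 7.11% at 20% O2. Syt1, which encodes the sensor for fast synchronous release, had the most sites of any gene, 24. Its highest was a distal site at chr10:109051995-109052723, 41384 bp before the outer start. It had percentiles of 99.3 and 97.2 in the HIF1A lists at 4% O2 and 98.8 and 83.2 in the ARNT lists at 4% O2, and no peak in any list at 20% O2. The Syt1 site partly over the sequence printed above, chr10:109009233-109009836, was centred 423.5 bp before the inner start. Its percentiles were 97.4 and 89.2 in HIF1A and 91.2 and 78.0 in ARNT at 4% O2, again with no peak at 20% O2. So both of these Syt1 sites were present in all 4 lists at the lower oxygen level and in none at the higher one. The distal one was already known and lies in the window only because that was widened for it.

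A further site deep inside Syt1, chr10:108930264-108930675, lay 78641.5 bp after the inner start and behaved differently. Its percentiles were 96.4 and 70.9 in HIF1A and 34.0 and 14.6 in ARNT at 4% O2, and at 20% O2 they were 0.603 and 70.0 in HIF1A and 1.59 in ARNT replicate 1. It was the only site of the 216 that was reproducible for both antibodies at 4% O2 and for HIF1A at 20% O2. Its rank was low in several of those lists.

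Syt9, another sensor of fast release, had 12 sites, none at a gene end. Its highest in HIF1A at 4% O2, chr7:107416834-107417262, lay inside the gene, 46258 bp after the start, with percentiles of 84.8 and 77.4 in HIF1A and 68.9 in ARNT replicate 1. At 20% O2 that site stood at 71.9 and 69.1 in HIF1A and 55.5 in ARNT replicate 1. The highest at 20% O2, chr7:107544181-107544651, lay inside the gene, 4240 bp from an end and 173626 bp after the start. The percentiles were 96.0 and 97.4 in HIF1A and 93.8 and 69.8 in ARNT at 20% O2, and 93.3 and 40.8 in HIF1A and 91.5 in ARNT replicate 1 at 4% O2. The latter had no peak in ARNT at 4% O2 replicate 2, so it was reproducible in 3 groups but not in ARNT at 4% O2.

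Syt6, a synaptotagmin of the plasma membrane, had a site 4045.5 bp before its outermost start, chr3:103571044-103571355, reproducible for both antibodies at 20% O2. The percentiles there were 89.2 and 92.3 in HIF1A and 75.3 and 25.9 in ARNT. At 4% O2 it had a peak in replicate 1 of each antibody, at 75.1 in HIF1A and 82.5 in ARNT, and none in replicate 2 of either. The Syt6 site reproducible for HIF1A at both oxygen levels, chr3:103640122-103640751, had percentiles of 85.4 and 32.2 at 4% O2 and 2.10 and 78.0 at 20% O2.

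Syt7, the slow, high-affinity sensor, had 1 reproducible site, chr19:10425510-10425747, inside the gene and for HIF1A at 20% O2 only, at percentiles of 32.4 and 78.0. HIF1A at 4% O2 replicate 1 also had a peak there, at 65.8. Syt11, a family member without calcium binding, had a HIF1A site 1205.5 bp after its start, chr3:88771286-88771501. Its percentiles were 85.8 and 70.0 at 4% O2 and 87.2 and 95.8 at 20% O2, and the only ARNT peak there was at 15.8 in replicate 1 at 4% O2. HIF1A peaks thus stood in all 4 HIF1A lists and ARNT peaks in 1 of 4.

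Syt17 had its highest site at a gene end, chr7:118447747-118448070, with percentiles of 88.4 and 75.9 in HIF1A and 45.7 and 72.3 in ARNT at 4% O2 and no peak at 20% O2. In Syt3 each antibody was reproducible at another place at 4% O2. The HIF1A site, chr7:44382596-44382842, lay 54 bp from a gene end with percentiles of 43.9 and 14.9, and it also overlapped the neighbouring gene 1700008O03Rik. The ARNT site, chr7:44405614-44406040, lay 5797 bp outside the gene with percentiles of 71.4 and 41.0. The remaining 8 genes of this group had no reproducible region. Syt2, Syt4 and Syt12 had peaks in HIF1A at 4% O2 replicate 1 only, and Syt5, Doc2a and Doc2b had peaks in 3 or 4 lists. Syt10 and Syt13 had no peak in any list.

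The vesicle proteins include the synapsins, which tether vesicles into a reserve pool, the SV2 glycoproteins and synaptophysin. Of these 7 genes, 3 had a reproducible HIF1A region and 4 an ARNT region at 4% O2 (34.2% and 27.7% of all genes), and 3 and 2 did at 20% O2 (10.1% and 7.11%). Syn2 had 13 sites. The highest, chr6:115135966-115136664, lay 1413 bp after the outer start, with percentiles of 98.7 and 97.1 in HIF1A and 97.5 and 88.9 in ARNT at 4% O2. At 20% O2 its only peak was in HIF1A replicate 2, at 79.8. The site over the printed Syn2 stretch, chr6:115134722-115134997, was lower, with percentiles of 80.4 and 45.9 in HIF1A and 28.9 in ARNT replicate 1, and it had no peak at 20% O2.

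Farther inside Syn2, other sites were the ones found at 20% O2. At chr6:115201817-115202250, 67131.5 bp from the nearer end, the percentiles at 20% O2 were 98.0 and 96.2 in HIF1A and 89.4 and 21.0 in ARNT. At 4% O2 this site had HIF1A peaks at 88.1 and 65.4 and no ARNT peak. At chr6:115210225-115210580 they were 82.2 and 65.9 in HIF1A and 62.2 and 70.8 in ARNT at 20% O2, and 90.8 and 9.89 in HIF1A and 80.5 in ARNT replicate 1 at 4% O2. So sites within 1 gene differed in which groups held them. Those near the start were reproducible at 4% O2 only, and these were reproducible for HIF1A at both levels. Not every site far from the start did so. The site chr6:115271814-115272202, 10618 bp from the nearer end, was reproducible for both antibodies at 4% O2 only.

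Sv2c, a receptor for botulinum neurotoxin A among its family, had 18 sites, which also differed in which groups held them. Its site nearest the start among the reproducible ones, chr13:96130712-96131716, 1363 bp after it, had percentiles of 98.0 and 91.9 in HIF1A and 96.7 and 84.3 in ARNT at 4% O2. At 20% O2 it had a peak at 82.8 in HIF1A replicate 2 only. The site chr13:96073528-96074056, 58785 bp after the start, had percentiles of 96.1 and 96.6 in HIF1A and 84.8 and 64.0 in ARNT at 20% O2. At 4% O2 its values were 96.9 and 85.3 in HIF1A and 94.0 in ARNT replicate 1, with no peak in ARNT replicate 2. A further site, chr13:96045451-96045879, was likewise present in 7 lists and absent from ARNT at 4% O2 replicate 2. There the percentiles were 88.9 and 91.8 in HIF1A and 91.9 and 50.2 in ARNT at 20% O2, and 89.4 and 60.7 in HIF1A and 76.5 in ARNT replicate 1 at 4% O2. Other sites far inside Sv2c differed from these. The site chr13:96023934-96024163, 64605.5 bp from the nearer end, was reproducible for HIF1A at 4% O2 and had no peak at 20% O2. The site chr13:96075104-96075508, 57271 bp from the nearer end, was reproducible for HIF1A at 20% O2 only.

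Syn1, on the X chromosome, had 1 reproducible site, chrX:20918530-20918812, 2247 bp after the start. Its percentiles were 93.6 and 86.8 in HIF1A and 93.8 and 77.4 in ARNT at 4% O2, with no peak at 20% O2. Syn3, whose long span holds the gene Timp3, had 11 sites and no reproducible HIF1A region at 4% O2. An ARNT site inside it, chr10:86064995-86065209, had percentiles of 35.3 and 58.3 at 4% O2 and no other peak. The Syn3 site chr10:86492129-86492346 had HIF1A peaks at 20% O2 only, at 88.2 and 95.9. It was the only reproducible site of the 70 with no peak at 4% O2 in either antibody. The other members of the group, Sv2a, Sv2b and Syp, had 3, 1 and 1 sites and none that was reproducible.

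The fusion machinery comprises the SNARE genes Snap25, Vamp1, Vamp2 and Stx1a and the complexins, which bind the assembled SNARE complex. Of these 6 genes, 3 had a reproducible HIF1A region and 1 an ARNT region at 4% O2 (34.2% and 27.7% of all genes). None had either at 20% O2, where 10.1% and 7.11% of all genes did, so a count of 0 among 6 is near that background. Vamp2, the vesicle SNARE of most central synapses, had 10 sites in a window of 23.9 kb. Those numbered 5 to 10 along the chromosome lay inside or within 1 kb of the neighbour Per1. The Vamp2 site at a gene end, chr11:69088148-69088601, had percentiles of 95.5 and 89.0 in HIF1A and 84.7 and 86.3 in ARNT at 4% O2. It had a single peak at 20% O2, at 52.6 in HIF1A replicate 2. The other sites reproducible for both antibodies in this window belonged as much to the clock gene Per1. One, chr11:69094732-69095377, lay 53.5 bp from Per1 and the other, chr11:69098720-69099026, lay inside it. The first of these had percentiles of 93.0 and 83.6 in HIF1A and 91.7 and 73.6 in ARNT at 4% O2.

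Snap25, the plasma membrane SNARE that botulinum neurotoxin A cleaves, had a HIF1A site 22.5 bp from a gene end, chr2:136713291-136713542. Its percentiles were 69.7 and 37.6 in HIF1A at 4% O2, 28.4 in ARNT at 4% O2 replicate 2 and 50.9 in HIF1A at 20% O2 replicate 2. Cplx2 had 4 reproducible HIF1A sites at 4% O2 and none for ARNT. The highest of them, chr13:54312863-54313177, was 10464 bp after the start, at 82.3 and 66.1 in HIF1A and 77.4 in ARNT replicate 1. Vamp1, Stx1a and Cplx1 had 3, 3 and 4 sites, none reproducible, and no peak in replicate 2 of either antibody at either level. The listed peaks near these 3 genes were thus all in replicate 1 lists.

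Among the priming and docking genes, 4 of 7 had a reproducible HIF1A region and 3 an ARNT region at 4% O2 (34.2% and 27.7% of all genes), and 1 had each at 20% O2 (10.1% and 7.11%). Unc13a, whose protein opens syntaxin and primes vesicles, had the highest site of all 38 genes for both antibodies. That site, chr8:71667749-71668957, lay 3404 bp after the start, inside the gene. Its percentiles were 99.8 and 99.3 in HIF1A and 99.7 and 99.6 in ARNT at 4% O2. At 20% O2 they were 99.2 in HIF1A replicate 2 and 68.9 in ARNT replicate 1, with no peak in the other lists. The Unc13a site over the printed stretch, chr8:71671692-71671968, was centred 73 bp before the start. It had percentiles of 86.8 and 83.2 in HIF1A and 90.0 and 71.2 in ARNT at 4% O2 and no peak at 20% O2.

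Rab3c, a vesicle GTPase, had 18 sites, 6 of them reproducible for HIF1A and 1 for ARNT at 4% O2. Its highest, chr13:110230016-110230459, lay 49968.5 bp after the start, with percentiles of 98.6 and 90.7 in HIF1A and 96.3 and 64.3 in ARNT at 4% O2 and no peak at 20% O2. Another, chr13:110191820-110192152, was reproducible for both antibodies at 20% O2, at 30.6 and 70.5 in HIF1A and 44.5 and 30.3 in ARNT. At 4% O2 that site stood at 81.6 and 34.6 in HIF1A and 75.5 in ARNT replicate 1. Rab3a, the main Rab3 of brain synapses, had a site 1285 bp before its start, chr8:70753243-70753593, with percentiles of 87.6 and 54.6 in HIF1A and 86.7 and 1.92 in ARNT at 4% O2. Its other reproducible sites lay within 1 kb of the neighbours Mpv17l2 and Ifi30. Rims2, an active zone scaffold, had 2 reproducible HIF1A sites at 4% O2, the one inside the gene at 72.2 and 72.6. The other, chr15:39187625-39188399, crossed the edge of the window and stood at 94.1 and 54.7. At 20% O2 it had peaks at 84.6 and 91.8 in HIF1A and 83.5 in ARNT replicate 1. Only regions reaching into the window were counted, and HIF1A at 20% O2 replicate 1 had no peak there. Rab3b and Unc13b had 3 sites each, none reproducible, and Rims1 had no peak in any list in spite of its size.

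The 3 disassembly genes had 4 sites, all reproducible in at least 1 group. At 4% O2, 2 of the 3 had a HIF1A region and 2 an ARNT region (34.2% and 27.7% of all genes), and at 20% O2 1 had each (10.1% and 7.11%). Nsf, the ATPase of the step, had a single site, chr11:103909889-103910166, 44028.5 bp inside the gene. It had percentiles of 92.9 and 90.5 in HIF1A and 87.9 and 79.2 in ARNT at 4% O2 and no peak at 20% O2. Napa, which encodes the adaptor alpha-SNAP, had the only site of the 216 with a peak in all 8 lists, chr7:16098075-16098704, over the printed stretch with 3 copies of CACGTG. Its percentiles were 88.9 and 65.6 in HIF1A and 83.3 and 27.9 in ARNT at 4% O2, and 71.9 and 85.6 in HIF1A and 74.0 and 88.1 in ARNT at 20% O2. The ARNT peaks at 4% O2 did not overlap each other, so the site was reproducible in the other 3 groups only. A second Napa site, chr7:16120060-16120248, was at the neighbour Kptn and had ARNT peaks only, at 98.2 and 97.3 at 20% O2 and 91.7 in replicate 1 at 4% O2. Napb, which encodes beta-SNAP, had 1 site, chr2:148732381-148732615, centred 78 bp before its start. It had ARNT peaks at 65.0 and 16.1 and a HIF1A peak at 15.3 in replicate 1, all at 4% O2.

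Sites reproducible for both antibodies were counted at each oxygen level. The former numbered 17 in 10 genes, of which 3 lay at a gene end, 9 inside the gene and 5 outside. The latter numbered 8 in 6 genes (Syt6, Syt9, Syn2, Sv2c, Rab3c and Napa), and no site was reproducible for both antibodies at both levels. Over the genome 3.69% of 5686 such sites at 4% O2, and 22.8% of 922 at 20% O2, were reproducible for both antibodies at both levels. Of the 17, 7 had no peak in any list at 20% O2, against 37.9% over the genome, and those were at Syt1 (2 sites), Syt17, Syn1, Rab3c, Unc13a and Nsf. Without the distal Syt1 site, for which that window had been widened, there were 6 of 16. Most sites found at 20% O2 had a peak in 3 of the lists at 4% O2 and few in the other. Of the 23 HIF1A sites reproducible at 20% O2, 22 and 17 had a peak in the HIF1A lists at 4% O2 and 20 in ARNT replicate 1, but only 2 in ARNT replicate 2. Over all 4537 such regions of the genome these shares were 96.6%, 57.5%, 80.4% and 16.2%. Of the 9 ARNT sites reproducible at 20% O2, 8 had a peak in ARNT at 4% O2 replicate 1 and 1 had one in replicate 2, against 95.1% and 32.3% of 1647 regions. In the HIF1A lists at 4% O2 there were 8 and 7 of the 9, against 91.3% and 56.0%. Per the file headers, ARNT at 4% O2 replicate 2 was sequenced on a flow cell of its own, and all replicate 1 samples shared a lane. The part of that library in these counts was not tested.

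**Figure D5:**
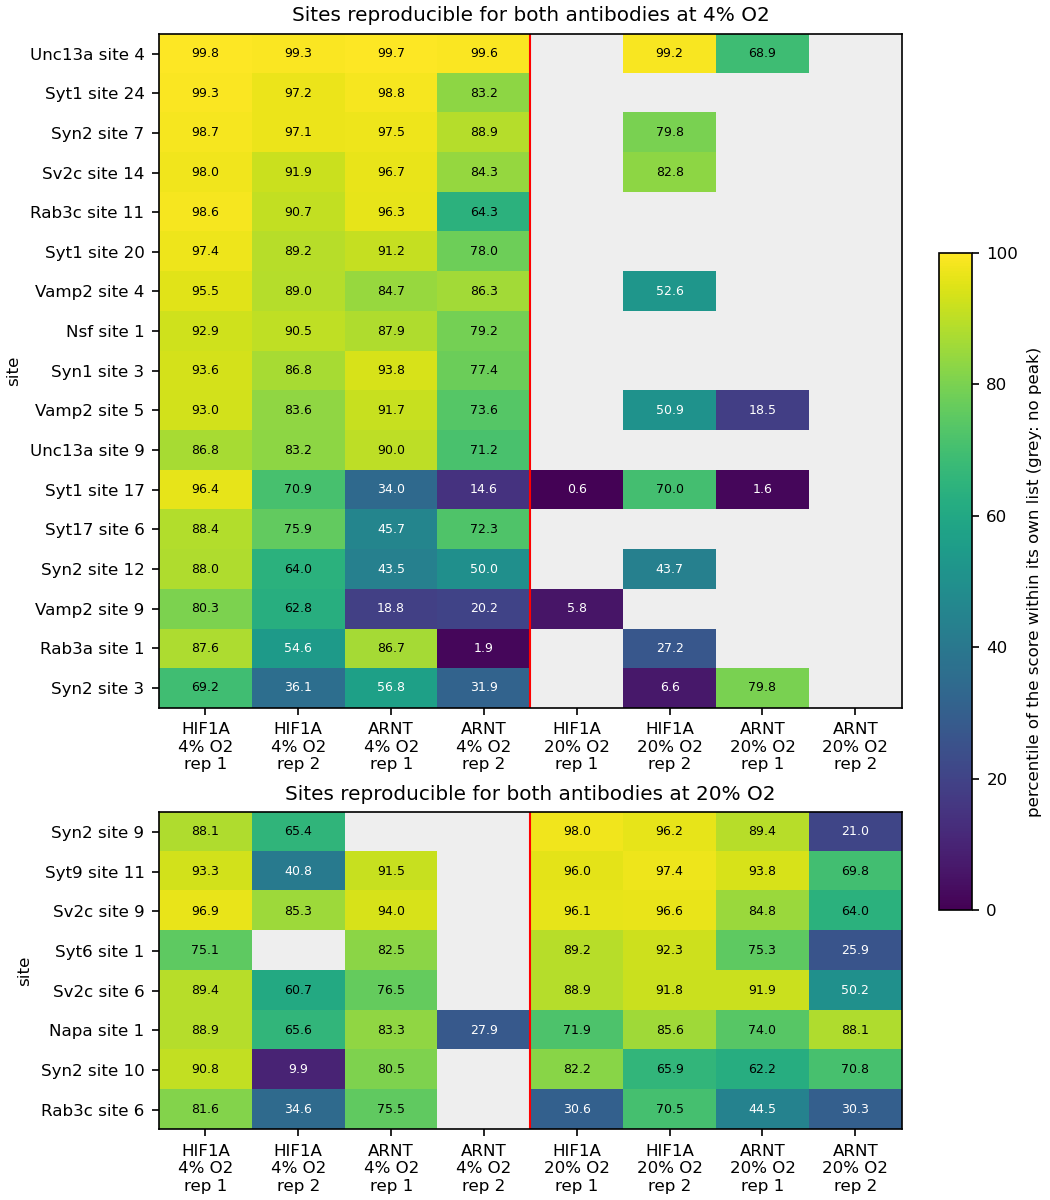
Percentile of the score within its own list for the 17 sites reproducible for both antibodies at 4% O2 (upper panel) and the 8 at 20% O2 (lower panel), in each of the 8 lists; sites are numbered along the chromosome within each window and grey means no peak. The upper panel is mostly grey at 20% O2, and in the lower panel the only grey cells are at 4% O2, 7 of them in ARNT replicate 2.

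The oxygen comparison over all members did not pass its test. The number of genes with a peak was 1.97-fold higher at 4% than at 20% O2 (mean log2 ratio 0.98, higher in 3 of 4 replicate pairs; two-sided exact permutation test within antibodies, p = 0.111, adjusted p = 0.296 over 8 tests, n = 2 lists per group). The smallest p that the 36 arrangements allow is 0.0556. The pairs gave 1.28 and -0.07 in HIF1A and 0.90 and 1.81 in ARNT, and the pairs that shared a lane were the 1.28 and the 0.90. Over all protein-coding genes the share with a peak was higher at 4% O2 in each such pair. It was 56.9% against 11.3% and 34.8% against 31.8% in HIF1A, and 49.3% against 22.3% and 35.5% against 7.60% in ARNT. A rise at 4% O2 is thus not particular to the vesicle genes. When each list was limited to its top 1808 peaks, the direction turned to a log2 ratio of -0.24. The longer lists at 4% O2 cannot be told apart from the oxygen level in the count of genes with a peak.

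Relative to list length, the vesicle genes held fewer peaks at 4% O2. Their peaks numbered 186 and 60 in HIF1A and 113 and 35 in ARNT at 4% O2, and 32 and 61 in HIF1A and 35 and 9 in ARNT at 20% O2. Per 1000 peaks of the list these were 4.36, 4.39, 4.53 and 3.53 at 4% O2 and 5.93, 4.56, 4.83 and 4.98 at 20% O2, without overlap between the levels. The mean difference was -0.87 per 1000, below 0 in 4 of 4 pairs (two-sided exact permutation p = 0.0556, the smallest possible, adjusted p = 0.296). It did not pass the threshold of 0.05, which this design cannot reach. The value per 1000 is not given here for all genes, and whether the difference is particular to these genes was not tested. Per Mb of window, in the same order, their peaks numbered 36.4, 11.7, 22.1 and 6.85 at 4% O2. At 20% O2 they numbered 6.26, 11.9, 6.85 and 1.76. In the windows of all protein-coding genes these were 23.9, 7.95, 14.3 and 6.32, and 2.64, 7.38, 4.06 and 1.04. The vesicle genes were above all genes in each list, and how far above by oxygen level was not tested.

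The peaks of these genes lay near gene ends more often at 4% O2, also without passing the test. The share within 1 kb of an end was 18.3% and 13.3% in HIF1A and 9.73% and 25.7% in ARNT at 4% O2, and 3.13% and 11.5% in HIF1A and 8.57% and 11.1% in ARNT at 20% O2. The mean difference was 8.19 percentage points, above 0 in 4 of 4 pairs (two-sided exact permutation p = 0.111, adjusted p = 0.296). The values overlapped between the levels. Over peaks in the windows of all protein-coding genes the same shares were 26.7%, 31.7%, 29.2% and 40.5% at 4% O2 and 12.1%, 28.5%, 28.9% and 38.5% at 20% O2. That share was also higher at 4% O2 in each replicate pair, so the direction is not particular to the vesicle genes. The vesicle genes were below that share in each list, in windows that are larger than those of most genes.

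Peak rank showed no stable difference. The median percentile of the peaks was 58.0 and 57.0 in HIF1A and 50.9 and 32.0 in ARNT at 4% O2, and 52.8 and 58.4 in HIF1A and 55.5 and 64.0 in ARNT at 20% O2. The difference of -8.18 had an exact permutation p of 0.278 (two-sided, adjusted p = 0.556), with 1 of 4 pairs above 0. It came mostly from ARNT replicate 2, whose pair differed by -32.0, and without replicate 2 it was 0.357. Between antibodies, HIF1A minus ARNT gave a log2 ratio of 0.44 for genes with a peak, 0.34 more peaks per 1000, -2.23 percentage points at gene ends and 5.93 in median percentile. Each had 2 of 4 pairs above 0 and exact permutation p values from 0.389 to 0.667 (two-sided, adjusted p from 0.571 to 0.667).

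A further 81 genes of vesicle docking, fusion, filling and recycling gave 38 with a reproducible HIF1A region and 29 with an ARNT region at 4% O2, or 46.9% and 35.8%, beside the same 34.2% and 27.7% of all genes. At 20% O2 there were 11 (13.6%) and 4 (4.94%), beside 10.1% and 7.11% of all genes and the 10 and 6 of the 38 genes above. All 29 ARNT genes at 4% O2 were among the 38 HIF1A genes. The highest at 4% O2 was Dnajc5, which encodes a vesicle chaperone, with mean percentiles over both lists of 99.7 in HIF1A and 99.5 in ARNT. It was followed by Sncb, which encodes beta-synuclein, at 99.3 and 99.5, and Rph3al, a Rab effector of secretory granules, at 99.5 and 99.1. Slc18a1, the vesicular monoamine transporter of neuroendocrine cells, was reproducible in all 4 groups, with 99.4 in HIF1A and 96.3 in ARNT at 4% O2 and 98.7 and 96.1 at 20% O2.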

How the data were processed

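The 8 deposited peak lists give a position and a score per peak. The authors called them per sample with MACS2 after BWA and Picard on mm10, per the submitters' processing notes, in an order and with versions and settings not given in the sources used here. The score is the authors' deposited value. No header names its scale, so it was used only for ranks within a list. Entries of 1 bp (both HIF1A replicate 2 lists) were widened by 100 bp on either side. Overlap meant at least 1 bp. Gene spans came from a table of GRCm38.p6 without strand. Groups and replicate numbers came from sample titles. The members and lists were chosen with earlier results of these data known. Genes given with the values of their leading sites in every list were those whose best reproducible site ranked in the 10 highest for HIF1A or ARNT at 4% O2 and all those with a region at 20% O2; others are given as examples chosen after their values were seen. Tests were two-sided exact permutation tests with Benjamini-Hochberg adjustment over 8 tests (Python 3.11.15, NumPy 2.4.6, SciPy 1.17.1), tested on simulated data. Alternatives were other windows, widths, score thresholds, overlaps and end distances, left-out replicates, a replicate block and neighbouring genes left out. Depth is unknown, so no counting interval is given.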

Additional observations from a re-analysis of the deposited data

How the results depend on the processing

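Of the values recomputed under alternatives, 157 kept their direction or, for counts, stayed within 1.5 times, 23 moved and 6 reversed. Whether a test changed its side of the threshold could not be asked, since the smallest possible p was above it in every setting. The 157 include the replicate blocks, plain and crossed, which leave the difference itself unchanged by construction. Those entries say nothing about stability. Leaving out regions at neighbouring genes, chosen after seeing the data, is among the 157. The sizes varied: over all alternatives, genes with a peak ran from -0.24 to 1.09 for oxygen and 0.09 to 0.80 for antibody, peaks per 1000 from -1.80 to -0.81 and 0.22 to 0.97, the gene-end share from 3.21 to 11.4 and -8.72 to 1.55, and the median percentile from -16.7 to 11.2 and -2.35 to 10.1. With each list limited to its top 1808 peaks, the oxygen difference in genes with a peak turned to -0.24 and that in median percentile to 11.2; members with a reproducible region fell to 5 (HIF1A) and 4 (ARNT) at 4% O2 and 6 (HIF1A) at 20% O2, and related genes to 10, 10 and 3. With the upper 50% of each list, the median percentile differed by 3.27 for oxygen and -2.35 for antibody, 8 members were ARNT genes at 4% O2 and 5 related genes HIF1A genes at 20% O2. With 50 kb for every gene, members numbered 21 (ARNT, 4% O2), 17 (HIF1A, 20% O2) and 12 (ARNT, 20% O2), and related genes 19 and 9 at 20% O2. With no flank, related genes numbered 21 (HIF1A) and 17 (ARNT) at 4% O2. These follow from fewer peaks or other windows; the cause of the reversals was not tested.

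With 1 list per group, any peak counts as a region. Without replicate 1 or 2 in turn, members numbered 19 to 34 (HIF1A, 4% O2), 21 to 28 (ARNT, 4% O2), 14 to 20 (HIF1A, 20% O2) and 6 to 15 (ARNT, 20% O2), and related genes 39 to 56, 39 to 46, 12 to 29 and 4 to 18. The oxygen difference in median percentile ran from -16.7 to 0.357. The antibody differences ran from -6.01 to 1.55 in gene-end share, 0.80 to 0.09 in genes with a peak, 0.22 to 0.47 in peaks per 1000 and 9.65 to 2.21 in median percentile (without replicate 1 and without replicate 2).

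Replicate numbers were compared as a pairing through correlated deviations over 38 genes, which were 0.14 for HIF1A and 0.41 for ARNT between oxygen levels, and 0.30 at 4% and -0.36 at 20% O2 between antibodies. The labels do not say that a number marks a shared culture. The replicate block changes only the arrangements, so the oxygen differences are 0.98, -0.87, 8.19 and -8.18 by construction (exact permutation p of 0.25, 0.125, 0.125 and 0.5). For the antibody comparison only, the numbers were also crossed at 20% O2, an alternative chosen after seeing the data. The smallest possible p is 0.125 in each of these blocked tests, so their 0 calls follow from the design.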
